A study of Mus musculus with 9 samples.

Results

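Lysine acetyltransferases transfer an acetyl group from acetyl-CoA to lysines of histones and other proteins. The 9 genes described here are *Ep300*, *Crebbp*, *Kat2a*, *Kat2b*, *Kat5*, *Kat6a*, *Kat6b*, *Kat7*, and *Kat8*. They were chosen by gene symbol from the nuclear enzymes of the p300/CBP, GNAT, and MYST families, and other acetyltransferases form a list below. Their RNA levels were compared to ask whether other members offset the small fall of *Ep300* RNA in *Rbbp4* mutant cells. The study reported a striking loss of p300 protein in the mutants, and p300 mRNA that was not reduced in a browser view of the RNA-seq. Protein was not measured here. The count tables held 25239 gene symbols, and all 9 genes were among the 14125 that passed the filter on low counts.

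RNA was sequenced from mouse E14 embryonic stem cells (ESCs), labelled as strain 12910la and grown with serum and leukemia inhibitory factor. There were 3 libraries from each of 3 genotypes, 9 in all. The control carried wild-type *Rbbp4* (Rbbp4+/+), which encodes a histone-binding subunit shared by PRC2 and several deacetylase complexes. The Ins/Ins line carried a short in-frame insertion in *Rbbp4* on both alleles, and the Ins/Del line carried that insertion on 1 allele and an in-frame deletion on the other. Each mutant line was a single clone made with CRISPR-Cas9, so the effect of the genotype cannot be told apart from that of the clone. The labels do not state whether libraries of a line came from separate cultures, so p-values measure only the spread between these libraries, which may be technical.

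p300, encoded by *Ep300*, and CBP, encoded by *Crebbp*, are large related coactivators that acetylate lysine 27 of histone H3 at enhancers and promoters. GCN5 (*Kat2a*) and PCAF (*Kat2b*) are alternative catalytic subunits of the SAGA and ATAC complexes and acetylate lysine 9 of H3. The MYST enzymes are TIP60 (*Kat5*) of the NuA4 complex, MOZ (*Kat6a*) and MORF (*Kat6b*), which work with BRPF scaffold proteins, HBO1 (*Kat7*), which works with BRPF or JADE scaffolds, and MOF (*Kat8*), which acetylates lysine 16 of histone H4 in the MSL and NSL complexes.

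The libraries held from 15838064 to 21366868 counted reads, with TMM scaling factors between 0.993 and 1.02. The normalized count of *Rbbp4* itself was 10005 ± 99.1 in control, 5604 ± 153 in Ins/Ins, and 10359 ± 238 in Ins/Del (mean ± SD, n = 3 per line, as for every ± value here). *Gm26722* and *Sync* overlap 18.06% and 11.75% of its exon length on the opposite strand, and the strand setting of the counting is not given in the sources used here. All 9 ESC markers examined passed the filter, and their summed level was 64464 to 68717 normalized counts in the control, 76698 to 76887 in Ins/Ins, and 76887 to 79504 in Ins/Del. Markers of other cells summed to less, and their sums also moved: the 5 fibroblast markers summed to 538 to 636 in the control, 253 to 281 in Ins/Ins, and 340.2 to 362 in Ins/Del, and *Lum* had at most 3 reads in every library. Summed levels in control, Ins/Ins, and Ins/Del were 93.1 to 107, 99.4 to 141, and 161 to 198 for 5 primitive endoderm markers and 193 to 217, 94.1 to 114, and 57.2 to 87.9 for 4 trophectoderm markers. They were 1235 to 1342, 1121 to 1219, and 1459 to 1498 for 4 neural markers, and 235 to 252, 325 to 351, and 272 to 295 for 4 mesoderm markers. *Neurog2* and *Mesp1* had at most 3 reads in every library. In every marker list but that of trophectoderm, tested genes went opposite ways. In the mean normalized counts of control, Ins/Ins, and Ins/Del, *Thy1* rose (45.7, 246, and 312) while *Col1a1* (287, 17.0, and 24.4) and *Col1a2* (250.005, 6.43, and 9.28) fell. *Tubb3* rose (472, 967, and 1294.5) while *Pax6* fell (678, 73.6, and 30.1). *Eomes* rose (193, 322, and 271) while *T* fell (44.6, 2.34, and 0.301), *Sox7* rose (22.2, 70.8, and 106) while *Gata4* fell (46.7, 15.9, and 22.1), and among the ESC markers *Zfp42* rose (7602, 14229, and 15812) while *Tdh* fell (4834, 1759, and 1748). The 3 tested trophectoderm markers had lower means in both mutants: *Cdx2* (30.1, 2.40, and 2.49), *Hand1* (23.3, 16.3, and 11.3), and *Krt7* (149, 82.2, and 50.4). The part of these shifts in the results was not tested, and fewer cells of a type cannot be told apart from less RNA per cell.

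The acetyltransferase genes did not move as a group. *Kat6b* rose and *Ep300*, *Kat5*, and *Kat7* fell in Ins/Ins, while *Kat2b* and *Kat6b* rose and *Ep300*, *Crebbp*, *Kat2a*, *Kat5*, and *Kat7* fell in Ins/Del. A gene is said to have risen or fallen where its p-value from the quasi-likelihood test of edgeR, after Benjamini-Hochberg adjustment over all tested genes, was at most 0.01. By that limit 4 of 9 members changed in Ins/Ins, against 58.4% of all tested genes, 29.0% being higher and 29.4% lower. In Ins/Del 7 of 9 changed, against 62.5% of all tested genes, with 30.6% higher and 31.9% lower. Most members changed little. The median absolute log2 fold change of the 9 was 0.09 in Ins/Ins and 0.16 in Ins/Del, where all tested genes had medians of 0.30 and 0.34. Their median signed log2 fold change was -0.06 and -0.13, beside medians of all tested genes that rounded to 0.00 and -0.01. The 3 libraries of the mutant lay wholly on one side of the 3 control libraries for 4 members in Ins/Ins and 6 in Ins/Del, where 69.1% and 72.8% of all tested genes did so. By direction, 1 member was higher and 3 were lower in every Ins/Ins library, as 34.9% and 34.2% of all tested genes were, and 3 were higher and 3 lower in every Ins/Del library, as 35.9% and 36.9% were.

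**Figure D1:**
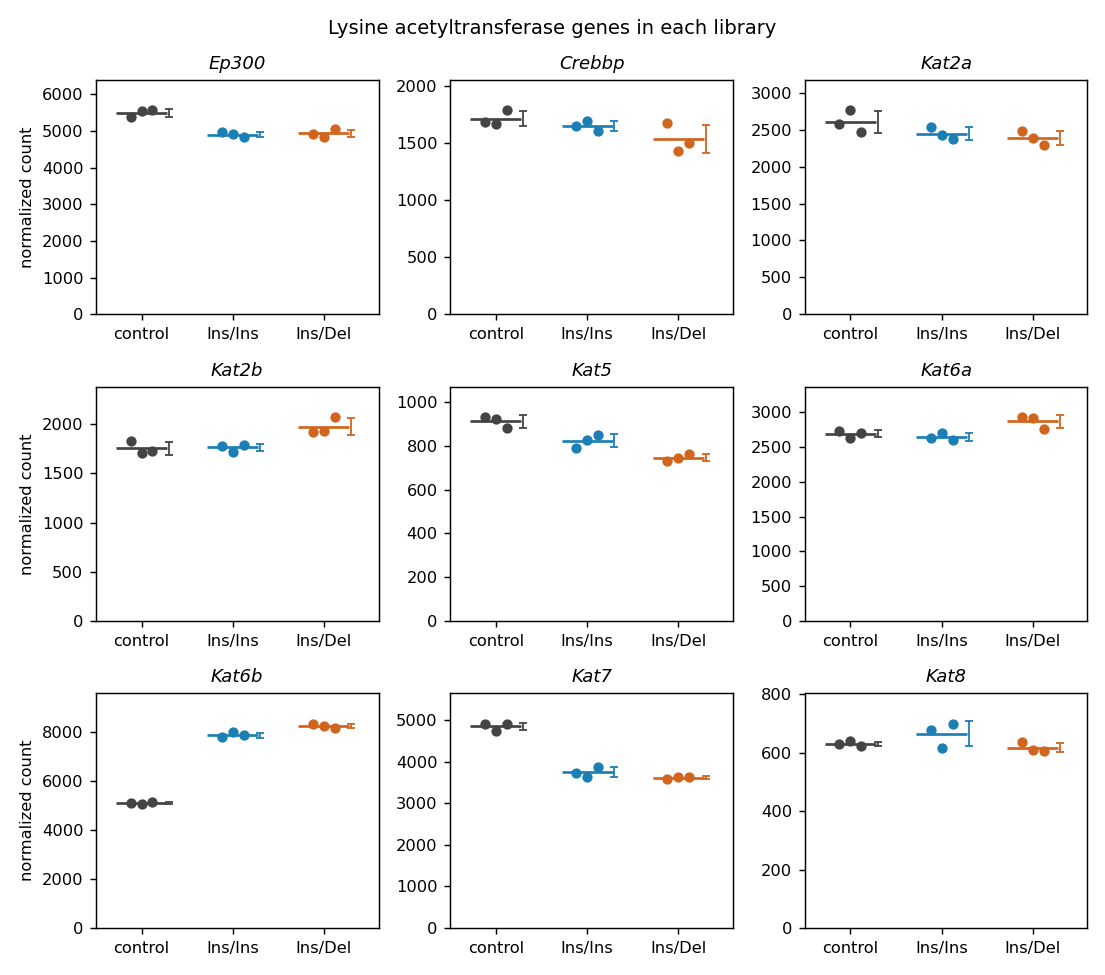
Normalized counts of the 9 acetyltransferase genes in each library of the control, Ins/Ins, and Ins/Del ESCs, with each vertical axis starting at 0. Points are libraries, horizontal lines are means, and bars are the SD (n = 3); *Kat6b* is higher and *Kat7* is lower in all 6 mutant libraries than in any control library.

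**Figure D2:**
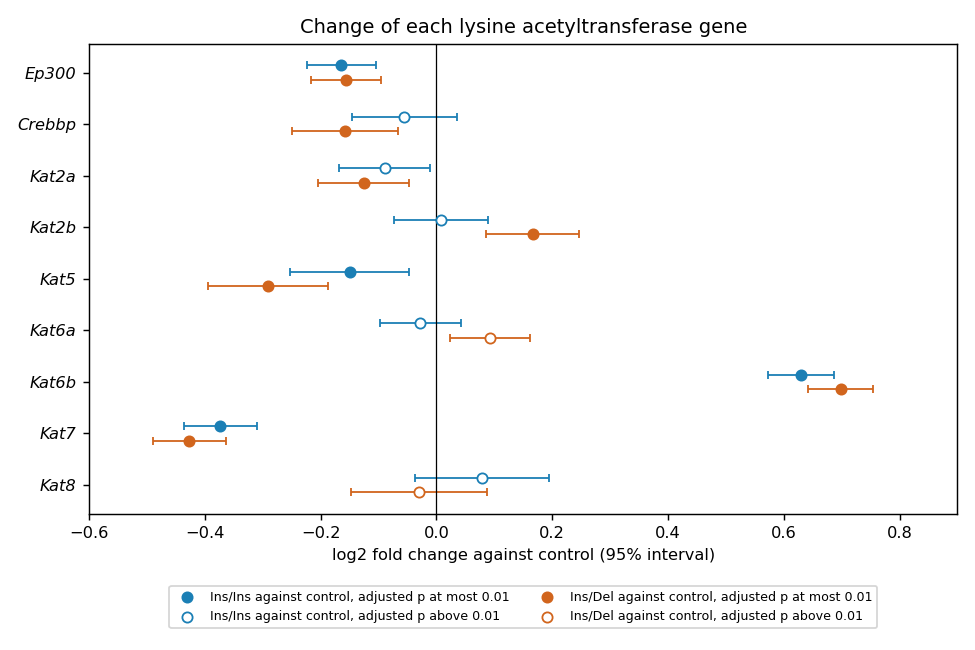
Log2 fold change of each acetyltransferase gene in Ins/Ins and Ins/Del against control, with 95% intervals from edgeR over 9 libraries. Filled points have an adjusted p of at most 0.01, and *Kat6b* at 0.63 and 0.70 and *Kat7* at -0.37 and -0.43 lie farthest from 0.

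*Ep300* lies on chromosome 15 from 81585351 to 81652077 on the plus strand (GENCODE M21 on GRCm38, as for all gene positions here). Its control libraries held between 5376 and 5565 normalized counts and its mutant libraries between 4839.6 and 5047, so no mutant library reached the control range. The log2 fold change was -0.16 in Ins/Ins (SE 0.030, 95% interval -0.22 to -0.10, adjusted p = 7.49e-06) and -0.16 in Ins/Del (SE 0.030, 95% interval -0.22 to -0.10, adjusted p = 1.43e-05). Among all tested genes, 31.0% in Ins/Ins and 27.1% in Ins/Del had a smaller absolute log2 fold change. The fall was small, and scaling to a housekeeping list without *Hprt* brought both values above the limit of the adjusted p, with log2 fold changes of -0.10 (adjusted p = 0.0265) and -0.074 (adjusted p = 0.102). With *Hprt* kept in the list only the Ins/Del call was lost (-0.10, adjusted p = 0.0254). *B2m*, a gene of that list, itself had mean normalized counts of 360 in control, 144 in Ins/Ins, and 144 in Ins/Del. With both *Hprt* and *B2m* left out the log2 fold changes of *Ep300* were -0.21 (adjusted p = 1.11e-06) and -0.19 (adjusted p = 9.12e-06). A test against a change of 1.2-fold did not call *Ep300* in either mutant.

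*Crebbp*, the closest relative of *Ep300*, is on the minus strand of chromosome 16 from 4081328 to 4213997. Its normalized counts were 1688, 1671, and 1787 in control, 1649, 1696, and 1606 in Ins/Ins, and 1677, 1434, and 1502 in Ins/Del. The Ins/Ins range crossed the control range, and in Ins/Del 2 libraries lay below every control library while the remaining library lay within the control range. The log2 fold change was -0.055 in Ins/Ins (SE 0.045, 95% interval -0.15 to 0.04, adjusted p = 0.276) and -0.16 in Ins/Del (SE 0.045, adjusted p = 0.00217). The Ins/Del call was lost with DESeq2 (log2 fold change -0.15, adjusted p = 0.0128), with scaling to the housekeeping list (-0.10, adjusted p = 0.0872) or to that list without *Hprt* (-0.075, adjusted p = 0.206), without control replicate 3 (-0.12, adjusted p = 0.0288), without Ins/Del replicate 2 (-0.11, adjusted p = 0.0572), and without Ins/Del replicate 3 (-0.14, adjusted p = 0.014).

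Levels of different genes are compared per kilobase (kb) of merged exon, which was 9.566 kb for *Ep300* and 10.820 kb for *Crebbp*. On that scale the mean of *Ep300* fell from 575 to 513 normalized counts per kb in Ins/Ins and to 516 in Ins/Del, a fall of 62.1 and 59.1 per kb. *Crebbp* began at 159 per kb in the control. To offset the fall of *Ep300* in transcript number, *Crebbp* would have had to rise by 39.2% in Ins/Ins and 37.2% in Ins/Del, or 0.48 and 0.46 on the log2 scale. The upper end of its 95% interval was a log2 fold change of 0.04 in Ins/Ins and -0.07 in Ins/Del, both under the rise that an offset needed.

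*Ep300* made up most of the summed level of the pair, so the sum largely repeats its fall. *Ep300* plus *Crebbp* came to 733 ± 14.5 normalized counts per kb in the control, 665 ± 9.45 in Ins/Ins, and 658 ± 16.6 in Ins/Del. The difference from the control was -9.30% and -10.3%. Control libraries lay between 718 and 747 per kb, and mutant libraries between 639 and 672, so the ranges did not overlap. Scaling to the housekeeping list without *Hprt* left a difference in the summed count of -5.02% in Ins/Ins and -4.96% in Ins/Del, and leaving out *B2m* as well gave -12.2% and -12.3%. The ratio of *Crebbp* to *Ep300* per kb was 0.276 ± 0.00917 in the control, 0.298 ± 0.00701 in Ins/Ins, and 0.276 ± 0.0227 in Ins/Del. No test was run on these sums or ratios.

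**Figure D3:**
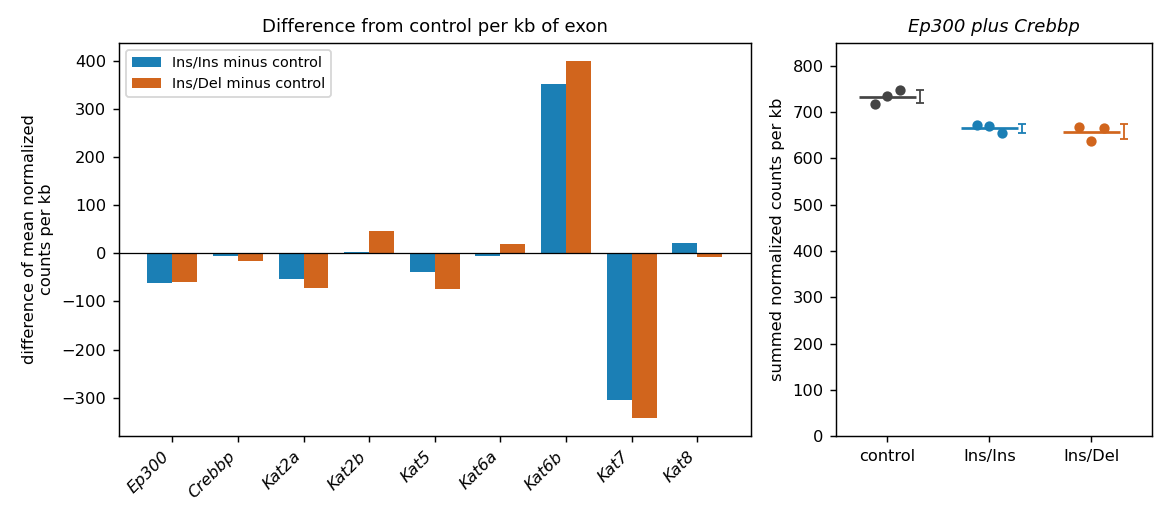
Left, difference of the mean normalized counts per kb of exon from the control for each acetyltransferase gene in Ins/Ins and Ins/Del. Right, *Ep300* plus *Crebbp* per kb in each library with the mean and SD (n = 3); the 3 control libraries sit between 718 and 747 and the 6 mutant libraries between 639 and 672.

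The GNAT genes had log2 fold changes of opposite sign in Ins/Del. *Kat2a*, on the minus strand of chromosome 11 from 100704746 to 100712465, gave normalized counts of 2578, 2763, and 2474 in control, 2539, 2428, and 2370.1 in Ins/Ins, and 2481, 2382, and 2297 in Ins/Del. Both mutant ranges crossed the control range. Its log2 fold change was -0.090 in Ins/Ins (SE 0.039, adjusted p = 0.0404) and -0.13 in Ins/Del (SE 0.039, adjusted p = 0.00449), and the Ins/Del call was lost with DESeq2 (adjusted p = 0.0217), in a fit of those groups alone (adjusted p = 0.0119), and with scaling to the housekeeping list (-0.070, adjusted p = 0.192) or to that list without *Hprt* (-0.042, adjusted p = 0.407). It was also lost without control replicate 2 (-0.071, adjusted p = 0.115), Ins/Del replicate 2 (-0.12, adjusted p = 0.0188), or Ins/Del replicate 3 (-0.098, adjusted p = 0.0455).

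*Kat2b* lies on the plus strand of chromosome 17 from 53566861 to 53672720. Single libraries gave normalized counts of 1829.5, 1702, and 1725 in control, 1781, 1719.7, and 1789 in Ins/Ins, and 1922, 1925.5, and 2069 in Ins/Del. Every Ins/Del library was above every other library, while Ins/Ins and control overlapped. The log2 fold change was 0.0078 in Ins/Ins (SE 0.040, 95% interval -0.07 to 0.09, adjusted p = 0.875) and 0.17 in Ins/Del (SE 0.040, adjusted p = 0.000323), a mean 12.6% above the control. *Kat2b* was the only member that the test called between the mutant lines, with a log2 difference of 0.16 for Ins/Del against Ins/Ins (SE 0.040, adjusted p = 0.00361). That call was lost without Ins/Ins replicate 1 (adjusted p = 0.0105), Ins/Ins replicate 2 (adjusted p = 0.0255), or Ins/Del replicate 3 (adjusted p = 0.0485). *Kat6a* lay just above the limit between the mutant lines (log2 difference 0.12, SE 0.034, adjusted p = 0.0108), with every Ins/Del library above every Ins/Ins library. In that comparison 1 of 9 members was called, against 10.8% of all tested genes, with 6.17% higher and 4.64% lower, and the libraries of the mutant lines did not overlap for 4 members, against 34.1%. The ratio of *Kat2b* to *Kat2a* per kb was 0.441 ± 0.0333 in the control, 0.472 ± 0.0190 in Ins/Ins, and 0.542 ± 0.0428 in Ins/Del.

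Among the MYST genes, *Kat6b* rose the most and *Kat7* fell the most of the 9 members in both mutants. *Kat6b*, on the plus strand of chromosome 14 from 21481434 to 21672478, gave normalized counts of 5079.95, 5035, and 5111 in control, 7765, 7964.5, and 7839.7 in Ins/Ins, and 8310.03, 8233, and 8159 in Ins/Del. The 3 lines did not overlap. *Kat6b* rose by 54.8% in Ins/Ins (log2 fold change 0.63, SE 0.028, adjusted p = 6.94e-22) and by 62.2% in Ins/Del (log2 fold change 0.70, SE 0.028, adjusted p = 1.81e-23). Of all tested genes, 72.4% in Ins/Ins and 72.0% in Ins/Del had a smaller absolute log2 fold change. Ins/Del against Ins/Ins differed by 0.07 on the log2 scale (adjusted p = 0.0759). Of 8 tested genes whose annotation lay within 500 kb of *Kat6b*, 1 rose and 4 fell in Ins/Ins, with log2 fold changes from -1.57 to 0.23. In Ins/Del 2 rose and 5 fell, with log2 fold changes from -1.45 to 0.19. The shares over all tested genes were 29.0% higher and 29.4% lower in Ins/Ins, and 30.6% higher and 31.9% lower in Ins/Del.

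*Kat6a*, the closest relative of *Kat6b*, lies on the plus strand of chromosome 8 from 22859535 to 22943259. Its libraries gave normalized counts of 2731, 2633, and 2702 in control, 2623, 2700.4, and 2595 in Ins/Ins, and 2929, 2918, and 2751 in Ins/Del. All 3 Ins/Del libraries exceeded all control libraries, and Ins/Ins overlapped the control. Neither comparison passed the limit, with a log2 fold change of -0.028 in Ins/Ins (SE 0.034, 95% interval -0.10 to 0.04, adjusted p = 0.484) and 0.093 in Ins/Del (SE 0.034, adjusted p = 0.0159). The Ins/Del value passed with the size factors of DESeq2 inside edgeR (adjusted p = 0.00906) and, separately, in a fit of those groups alone (adjusted p = 0.00733). It also passed with the housekeeping list (adjusted p = 0.00398), with that list without *Hprt* (adjusted p = 0.000322), and without Ins/Del replicate 3 (adjusted p = 0.00478). With both *Hprt* and *B2m* left out of the list it did not pass (adjusted p = 0.159). The ratio of *Kat6b* to *Kat6a* per kb went from 2.18 ± 0.0305 in the control to 3.44 ± 0.0443 in Ins/Ins and 3.33 ± 0.0913 in Ins/Del.

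*Kat7*, on the minus strand of chromosome 11 from 95274259 to 95310246, gave normalized counts of 4903, 4754, and 4912 in control, 3732, 3637, and 3879 in Ins/Ins, and 3575, 3625, and 3639 in Ins/Del. No mutant library reached the control range, and the mutant ranges overlapped. *Kat7* fell by 22.8% in Ins/Ins (log2 fold change -0.37, SE 0.031, adjusted p = 1.95e-13) and by 25.6% in Ins/Del (log2 fold change -0.43, SE 0.031, adjusted p = 3.67e-15). Of all tested genes, 56.7% and 57.3% had a smaller absolute log2 fold change. *Kat6b* and *Kat7* kept their calls in both mutants under every alternative tried, including the test against 1.2-fold, in which they were the only members called.

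The stretches upstream of *Kat6b* and *Kat7* are shown because these genes moved farthest, in opposite directions. Each is the 250 bases before the first transcription start that RefSeq lists on GRCm38.p6, written 5′ to 3′ on the strand of the gene, with CCAAT boxes in capitals. The *Kat6b* stretch is chr14:21499520-21499769 on the plus strand, inside an intron of the longer gene that GENCODE annotates, and the *Kat7* stretch is chr11:95310247-95310496 on the minus strand, where it overlaps an exon of the antisense gene *Gm11520*.
Kat6b: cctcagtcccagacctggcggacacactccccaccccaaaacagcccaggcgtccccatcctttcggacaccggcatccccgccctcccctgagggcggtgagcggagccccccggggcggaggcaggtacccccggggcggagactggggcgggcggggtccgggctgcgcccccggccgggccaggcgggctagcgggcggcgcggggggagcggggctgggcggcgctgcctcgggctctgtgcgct
Kat7: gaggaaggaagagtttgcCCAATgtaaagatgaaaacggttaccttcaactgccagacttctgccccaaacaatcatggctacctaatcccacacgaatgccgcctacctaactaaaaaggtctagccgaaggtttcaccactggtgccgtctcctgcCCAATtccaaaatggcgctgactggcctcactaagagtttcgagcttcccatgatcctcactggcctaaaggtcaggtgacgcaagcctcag
The *Kat6b* stretch was 78.8% G or C with 27 CpG dinucleotides, and the *Kat7* stretch was 50.8% with 8. The *Kat7* stretch held 2 CCAAT boxes, which start 232 and 92 bases before the transcription start, and the *Kat6b* stretch held none of the motifs searched. The search covered both strands for the cell cycle homology element (TTTGAA), E2F sites (TTTCCCGC and TTTGGCGC), the E-box (CACGTG), the cyclic AMP response element (TGACGTCA), the CCAAT box (CCAAT), and a YY1 site (AAGATGGC). Apart from its CCAAT boxes, the *Kat7* stretch held none of these motifs. RefSeq promoters were matched for 8 of the 9 members, not for *Kat6a*. CCAAT was present in 4 of the 8, namely *Kat2b*, *Kat5*, *Kat7*, and *Kat8*, and in 34.5% of 27025 promoters of the same length. *Kat5* also held TTTGAA, found in 16.3% of promoters, and CACGTG, found in 6.05%. The 8 members held no TTTCCCGC (0.929% of promoters), TTTGGCGC (0.437%), TGACGTCA (1.62%), or AAGATGGC (1.59%). A match is a run of letters and was not tested for binding.

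*Kat5*, on the minus strand of chromosome 19 from 5603014 to 5610237, gave normalized counts of 931, 924, and 879 in control, 791, 828, and 851 in Ins/Ins, and 729.9, 745, and 764 in Ins/Del. The 3 lines did not overlap, and Ins/Del was lowest. *Kat5* fell by 18.1% in Ins/Del (log2 fold change -0.29, SE 0.051, adjusted p = 4.75e-06). In Ins/Ins the mean differed by -9.64% (log2 fold change -0.15, SE 0.051, adjusted p = 0.00908), close to the limit, and lost the call with DESeq2 (adjusted p = 0.0337), with scaling to the housekeeping list (-0.10, adjusted p = 0.112) or to that list without *Hprt* (-0.084, adjusted p = 0.189), with no filter on low counts (adjusted p = 0.0193), in a fit of those groups alone (adjusted p = 0.0129), and without control replicate 1 (adjusted p = 0.0425), control replicate 2 (adjusted p = 0.0405), Ins/Ins replicate 1 (adjusted p = 0.101), or Ins/Ins replicate 2 (adjusted p = 0.0184). *Rnaseh2c* overlaps 18.91% of the exon length of *Kat5* on the opposite strand. The strand setting is not given, so how reads over the shared bases were counted is not known.

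*Kat8*, on the plus strand of chromosome 7 from 127912516 to 127925837, gave normalized counts of 628, 639, and 624 in control, 678, 617, and 699 in Ins/Ins, and 636, 609.95, and 606 in Ins/Del. The lines overlapped. The log2 fold change was 0.079 in Ins/Ins (SE 0.057, 95% interval -0.04 to 0.19, adjusted p = 0.219) and -0.030 in Ins/Del (SE 0.058, 95% interval -0.15 to 0.09, adjusted p = 0.658). *Prss8* overlaps 7.73% of its exon length on the opposite strand.

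The order of levels within each line, in normalized counts per kb of exon, changed at the top and in the middle. In the control, *Kat7* was highest at 1339 ± 24.5, followed by *Kat2a* at 855, *Kat6b* at 643, *Ep300* at 575, *Kat5* at 405, *Kat8* at 399, *Kat2b* at 377, *Kat6a* at 295, and *Crebbp* at 159. Only *Kat5* and *Kat8* overlapped among neighbors in that order. In Ins/Ins, *Kat7* at 1034 and *Kat6b* at 996 overlapped at the top, *Kat2a* at 803, *Ep300* at 513, and *Kat8* at 421 came next, and *Kat2b* at 379 and *Kat5* at 366 overlapped. In Ins/Del, *Kat6b* at 1044 was above *Kat7* at 996 with no overlap, and *Kat5* had moved down to 331, below *Kat2b* at 424 and *Kat8* at 391. *Ep300* came directly after *Kat2a* or *Kat6b*, and *Crebbp* was last, in every line.

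The summed level of all 9 genes differed from the control by less than most of its parts. It was 5046 ± 28.3 normalized counts per kb in the control, 4952 ± 43.2 in Ins/Ins, and 4941 ± 36.3 in Ins/Del, differences of -1.86% and -2.07%. Without *Ep300*, the other 8 genes summed to 4471 ± 36.0, 4439.8 ± 45.1, and 4426 ± 37.96 per kb, differences of -0.705% and -1.02% from the control. The sign of the sum depends on the scale: as plain normalized counts, in which a long transcript weighs more, the 9 genes were 2.96% and 4.56% above the control. In the differences per kb, *Kat6b* stood at 352 in Ins/Ins and 400.4 in Ins/Del and *Kat7* at -305 and -343. The share of *Kat6b* in the summed level went from 12.7% to 20.1% and 21.1%, that of *Kat7* from 26.5% to 20.9% and 20.2%, and that of *Ep300* from 11.4% to 10.4% in both mutants.

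The pattern of *Ep300* over the 9 libraries was compared with every other tested gene by Pearson's r of log2 (CPM + 0.5), as a description in which the libraries share their line. The 5 genes most like it were *Casp6* (r = 0.992), *Nat10* (r = 0.992), *Dhrs4* (r = 0.991), *Rad54b* (r = 0.990), and *Mrpl16* (r = 0.990). *Nat10*, an RNA acetyltransferase, had a mean of 3211 ± 89.5 normalized counts in control, 2730.04 ± 51.2 in Ins/Ins, and 2708 ± 67.0 in Ins/Del. Among the members, r with *Ep300* was highest for *Kat7* (r = 0.931, rank 1127) and lowest for *Kat6b* (r = -0.957), while *Crebbp* had r = 0.558 at rank 5261.

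Genes that work with the acetyltransferases were examined as lists of complex subunits and cofactors. None of these lists moved wholly in one direction, and each held genes that rose and genes that fell in both mutants, in a background where 25.6% of all tested genes rose in both and 26.7% fell in both. Of 11 cofactors of p300 and CBP, 2 rose and 4 fell in both mutants, with a median log2 fold change of 0.02 in Ins/Ins and -0.01 in Ins/Del. *Ncoa1*, a nuclear receptor coactivator that binds CBP, rose from 653 to 1126 and 1189 mean normalized counts (log2 fold change 0.78 and 0.86, SE 0.050 each), and *Cited4*, a CBP-binding protein, rose from 20.4 to 40.8 and 44.8 (0.99 and 1.14, SE 0.23 each). *Cited2*, which competes with other factors for p300 and CBP, fell from 2137 to 1383 and 1363 (-0.63 and -0.65, SE 0.044 each), and *Crtc3*, a coactivator of CREB, fell from 69.1 to 47.4 and 43.7 (-0.55 and -0.67, SE 0.18 each).

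Of 29 SAGA and ATAC subunits, the partners of GCN5 and PCAF, 7 rose and 8 fell in both mutants, with medians of -0.03 and -0.05. The subunits *Taf9b* (0.93 and 0.80, SE 0.13 each) and *Taf12* (0.78 and 0.82, SE 0.065 each) rose, and *Atxn7l1* (-0.48 and -0.51, SE 0.11 each) and *Tada1* (-0.41 and -0.48, SE 0.090 and 0.091) fell on the log2 scale. Of 17 subunits of the NuA4 complex around TIP60, 5 rose and 4 fell in both, with medians of 0.01 and -0.02. *Vps72*, a histone H2A.Z chaperone, had log2 fold changes of 0.39 and 0.45 (SE 0.049 each), and *Mbtd1*, a reader of methylated histones, had -0.30 and -0.36 (SE 0.032 each). *Epc2*, a scaffold subunit, fell by 0.21 and 0.16 on the log2 scale (SE 0.043 each).

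The scaffold and reader subunits of MOZ, MORF, and HBO1 held the largest fall in Ins/Ins among the partner genes named here. *Jade2*, a scaffold that joins HBO1, had between 939.7 and 1022 normalized counts in the control libraries, between 336 and 353 in Ins/Ins, and between 371 and 423 in Ins/Del. No mutant library came near the control range, and *Jade2* fell by 65.3% in Ins/Ins (log2 fold change -1.53, SE 0.061, adjusted p = 2.68e-23) and by 59.5% in Ins/Del (-1.31, SE 0.060, adjusted p = 1.52e-21). Its relative *Jade1* rose from 11258 to 13749 and 14672 (0.29 and 0.38, SE 0.028 each). The scaffold *Brpf3* fell (-0.30 and -0.60, SE 0.047 and 0.048), and *Meaf6*, a subunit shared with NuA4, rose (0.39 and 0.20, SE 0.061 and 0.063). Of the 9 genes of this list, 4 rose and 2 fell in both mutants, with medians of 0.07 and -0.11.

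Of 11 subunits of the MSL and NSL complexes around MOF, 2 rose and 3 fell in both mutants, with medians of 0.03 and 0.08. *Msl3*, which reads methylated histones in MSL and fell the most of them in Ins/Del, had 207 to 247 normalized counts in the control libraries, 92.0 to 104 in Ins/Ins, and 66.4 to 81.2 in Ins/Del, a log2 fold change of -1.17 (SE 0.11, adjusted p = 8.6e-12) and -1.60 (SE 0.12, adjusted p = 6.66e-15). The MSL scaffold *Msl1* also fell (-0.39 and -0.62, SE 0.047 and 0.048). *Wdr5*, which is shared by NSL, ATAC, and histone methyltransferases, rose from 4623 to 6525 and 6653 (0.50 and 0.53, SE 0.029 each), and *Kansl2* of NSL rose by less (0.36 and 0.28, SE 0.044 and 0.045).

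**Figure D4:**
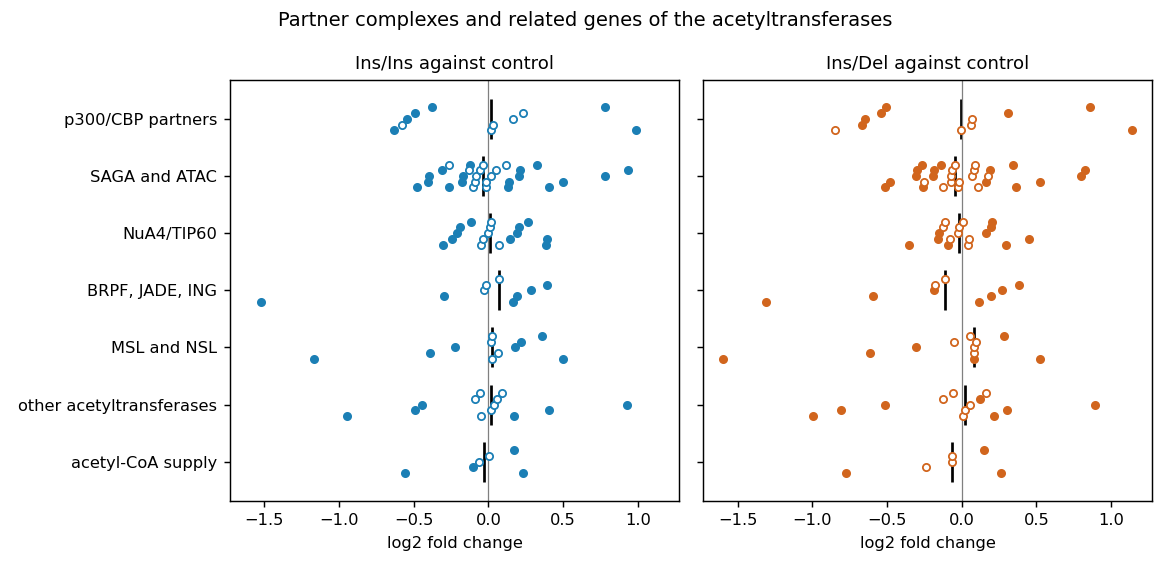
Log2 fold change of each tested gene in 7 lists of acetyltransferase partners and related genes, in Ins/Ins (left) and Ins/Del (right) against control. Filled points have an adjusted p of at most 0.01 and black bars are list medians; *Jade2* at -1.53 and -1.31 is the lowest point of the BRPF, JADE, and ING list, and *Msl3* at -1.17 and -1.60 that of the MSL and NSL list.

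Other acetyltransferases, the supply of acetyl-CoA, and the readers of acetylated histones were mixed as well. Of 13 other acetyltransferases, 3 rose and 3 fell in both mutants, with medians of 0.02 in each. *Elp3*, the catalytic subunit of the tRNA-modifying Elongator complex, had 2861 to 2985 normalized counts in the control libraries, 1487 to 1543 in Ins/Ins, and 1433 to 1499 in Ins/Del (log2 fold change -0.948 and -0.996, SE 0.037 each). *Mcm3ap*, which encodes GANP, a protein of messenger RNA export, rose from 2571 to 4884 and 4775 (0.93 and 0.89, SE 0.034 each), *Hat1*, which acetylates new histone H4, rose (0.41 and 0.31, SE 0.029 each), and *Atat1*, which acetylates tubulin, fell (-0.49 and -0.81, SE 0.11 each).

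Of 6 genes of acetyl-CoA supply, 2 rose and 1 fell in both mutants, with medians of -0.03 and -0.07. *Slc25a1*, the mitochondrial citrate carrier that feeds acetyl-CoA synthesis in the cytosol, fell from 1796 to 1218 and 1049.5 (log2 fold change -0.56 and -0.78, SE 0.048 and 0.049), while the pyruvate dehydrogenase subunits *Dlat* (0.23 and 0.26, SE 0.039 each) and *Pdhb* (0.17 and 0.15, SE 0.038 each) rose. Among genes for readers of acetylated histones, *Brd2* rose (0.19 and 0.16, SE 0.029 each) and *Brd3* fell (-0.11 and -0.21). *Brdt*, a germ cell gene with 39.5 mean normalized counts in the control, had log2 fold changes of -0.26 (adjusted p = 0.307) and 0.28 (adjusted p = 0.242).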

How the data were processed

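Reads per gene were counted by the authors, who sequenced Kapa mRNA HyperPrep libraries, aligned the reads to mm10 with STAR 2.7.3, and counted them with HTSeq. The deposited values are whole-number counts per gene symbol with no normalization. The HTSeq version, annotation, and strand setting are not given in the sources used here, and gene counts do not separate isoforms. The study tested counts with DESeq2 1.22.2. Here edgeR 4.0.16 in R 4.3.3 was run with TMM scaling, filterByExpr, and quasi-likelihood tests (glmQLFit and glmQLFTest) on all 9 libraries in 3 groups, with Benjamini-Hochberg adjustment over 14125 genes and a limit of 0.01. To obtain normalized counts, each count was scaled by the ratio of the mean effective library size to that of its library. Groups follow the genotype labels. Replicate libraries differed beyond sampling noise. Exon lengths and positions came from GENCODE M21, and promoters from RefSeq. Scripts were tested on simulated data, and tables and figures were made with Python 3.11.15 and matplotlib 3.10.9.

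The members and gene lists were chosen with earlier results of these data known. Each list was named by up to 4 genes past the limit in both mutants in the same direction, the 2 highest and the 2 lowest by mean log2 fold change, together with *Brd2*, *Brd3*, *Brdt*, *Rbbp4*, and the 5 genes most like *Ep300*. Another gene that the rule takes is not reported here. The alternatives were DESeq2 1.42.0, its size factors in edgeR, scaling by total counts or by a housekeeping list, no filter on low counts, a limit of 0.05, a test against 1.2-fold, separate fits for each pair of lines, a replicate block, and each library left out in turn. Housekeeping scaling without *Hprt*, which had few reads, and without *Hprt* and *B2m* was added after seeing the data. ChIP-seq data were not analysed here.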

Additional observations from a re-analysis of the deposited data

Results flagged for a closer look

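*Kat2b* differed between the mutant lines in a test of the difference itself: Ins/Del was 0.16 higher than Ins/Ins on the log2 scale (SE 0.040, edgeR adjusted p = 0.00361), while it was 0.0078 in Ins/Ins and 0.17 in Ins/Del against control. All 3 Ins/Del libraries lay above all 3 Ins/Ins libraries, as they did in 17.4% of all tested genes.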

How the results depend on the processing

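Of 459 alternative values of the members' log2 fold changes, 399 kept their direction and their side of the limit and 60 did not. The cause of these changes was not tested. In Ins/Ins, the number of members called was 2 with housekeeping scaling without *Hprt*, 2 in the test against 1.2-fold, and 3 to 4 without single libraries. In Ins/Del it was 2 in the test against 1.2-fold and 5 to 7 without single libraries. Between the mutants it was 2 with DESeq2 size factors in edgeR, 2 at a limit of 0.05, 2 in a fit of those groups alone, 0 in the test against 1.2-fold, and 0 to 1 without single libraries. *Ep300* in Ins/Ins was -0.10 with housekeeping scaling without *Hprt*, and -0.16 (adjusted p = 1) against 1.2-fold. In Ins/Del it was -0.10 with the housekeeping list, -0.074 without *Hprt*, and -0.16 against 1.2-fold. Without single libraries it ranged from -0.18 to -0.15 in Ins/Ins and from -0.17 to -0.14 in Ins/Del. *Crebbp* in Ins/Ins turned to 0.0085 without *Hprt* and ranged from -0.07 to -0.02 without single libraries. In Ins/Del it was -0.15 with DESeq2, -0.10 with the housekeeping list, -0.075 without *Hprt*, and -0.16 against 1.2-fold, and ranged from -0.22 to -0.11 without single libraries. The summed count of *Ep300* and *Crebbp* was -6.31% in Ins/Ins and -6.93% in Ins/Del with the housekeeping list, -5.02% and -4.96% without *Hprt*, and -12.2% in Ins/Ins without *Hprt* and *B2m*, and ranged from -10.1% to -8.27% and from -11.2% to -8.95% without single libraries. Values near 0 also turned. *Kat2b* in Ins/Ins was -0.0056 with total counts, -0.042 without *Hprt* and *B2m*, -0.0022 without control replicate 2, and -6.26e-05 without Ins/Ins replicate 3, with up to 0.042 without other libraries. *Kat6a* in Ins/Ins was 0.018 with the housekeeping list and 0.037 without *Hprt*, and *Kat8* in Ins/Del was 0.027 and 0.053. *Ep300* between the mutants was -0.0018 without Ins/Ins replicate 3 and -0.0082 without Ins/Del replicate 3, with up to 0.021 without other libraries.

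After each gene was centered on its line mean, same-numbered libraries of different lines correlated at -0.039 to 0.044. Differently numbered libraries correlated at -0.059 to 0.081. The first range lay inside the second and did not show pairing by replicate number. Such centering holds the average of these correlations near 0, and pairing was not tested. With the replicate block, 3, 7, and 1 members were called in Ins/Ins, in Ins/Del, and between the mutants, and of 27 values 1 changed its call, *Kat5* in Ins/Ins (-0.15, adjusted p = 0.011).

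Under the alternatives, the median log2 fold change of all tested genes lay between -0.046 and 0.071. With housekeeping scaling without *Hprt*, 58.4% of the called genes were higher in each mutant, and without *Hprt* and *B2m* 42.5% in Ins/Ins and 44.8% in Ins/Del. Between the mutants, 57.1% of called genes were higher, and 67.7% with housekeeping scaling without *Hprt*. *Hprt* had 6 to 13 reads per library, and *B2m* had mean normalized counts of 360 in control and 144 in each mutant.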
